A study of Rattus norvegicus with 48 samples.

Results

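Circadian clock genes were followed in the kidneys of 24 male rats, each of which gave a cortex array and a medulla array (48 arrays, 6 per tissue and diet group). The titles name no rat, so the cortex and medulla arrays of a diet group with the same number were taken as the same rat. Of 10 genes listed, chosen by symbol among all annotated probes, 9 had a probe: Per1, Per2, Per3, Dbp, Nr1d1, Tef, Bhlhe40, Cry1 and Clock, 1 probe each, out of 13278 genes named on 22226 probes; Nr1d2 was not among the annotated probes. Hydroxy-L-proline (HLP) is an oxalate precursor used to raise urinary oxalate in the rat, and apocynin is an inhibitor of NADPH oxidase assembly. The groups were HLP+Apocynin (chow with 5% HLP and 4 mmol apocynin in the drinking water), HLP (the same chow), apocynin (regular chow with apocynin in the water) and control (regular chow), all sampled at 28 days by the labels. The labels name the strain Wistar and give 28 days as the age; the methods describe Sprague-Dawley rats that were older when a feeding period of that length began, and they describe no group given apocynin alone. No source used here gives the hour at which kidneys were taken.

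The mammalian clock is a feedback loop of transcription. CLOCK, or its relative NPAS2, pairs with BMAL1 and binds E-box elements in front of the Per and Cry genes, whose proteins return to the nucleus and repress that pair. The same elements drive Nr1d1, Dbp, Tef and Bhlhe40: the nuclear receptor REV-ERB alpha (Nr1d1) represses Bmal1, Nfil3 and, in part, Cry1 through RORE elements, and the PAR bZIP factors DBP and TEF bind D-boxes, which the repressor NFIL3 also binds. Bmal1 and Nfil3 therefore run close to antiphase with Dbp, Tef and the Per genes in most tissues. The loop runs in kidney tubules, where it bears on sodium and water handling, and glucocorticoids act on it directly, since Per1 and Per2 carry response elements for their receptor.

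The elements can be read in the start regions of the genes whose arrays are described below. RefSeq promoter windows on the rat build GRCr8 were held for 9 of the 10 listed genes (11 windows; none for Cry1). Printed here are the 250 bases before the start, 5′ to 3′ on the gene's strand, of the windows with a clock element among the genes whose levels moved most between rats, with Bmal1 as the gene of opposite phase. Capitals mark the E'-box and D-box of Per2, the E'-box and the E-box of the 2 Nr1d1 starts, the E-box of Tef and the RORE of Bmal1.
Per2 (chr9:99496994-99497243, minus strand): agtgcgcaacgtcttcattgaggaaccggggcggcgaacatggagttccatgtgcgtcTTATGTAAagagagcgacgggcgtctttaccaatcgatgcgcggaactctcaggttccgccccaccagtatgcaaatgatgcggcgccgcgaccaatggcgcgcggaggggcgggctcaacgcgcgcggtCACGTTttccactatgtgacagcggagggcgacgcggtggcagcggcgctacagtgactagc
Nr1d1, upstream start (chr10:84231813-84232062, minus strand): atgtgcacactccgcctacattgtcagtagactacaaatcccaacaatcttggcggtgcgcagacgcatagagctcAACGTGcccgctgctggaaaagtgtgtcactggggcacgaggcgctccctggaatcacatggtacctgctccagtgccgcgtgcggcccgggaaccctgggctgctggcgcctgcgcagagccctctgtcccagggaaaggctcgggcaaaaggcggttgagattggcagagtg
Nr1d1, downstream start (chr10:84229455-84229704, minus strand): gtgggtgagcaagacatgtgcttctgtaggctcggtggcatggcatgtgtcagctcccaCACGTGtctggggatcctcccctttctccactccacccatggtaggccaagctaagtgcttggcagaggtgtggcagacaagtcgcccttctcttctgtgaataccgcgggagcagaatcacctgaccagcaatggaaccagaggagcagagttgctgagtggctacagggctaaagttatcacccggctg
Tef (chr7:115206577-115206826, plus strand): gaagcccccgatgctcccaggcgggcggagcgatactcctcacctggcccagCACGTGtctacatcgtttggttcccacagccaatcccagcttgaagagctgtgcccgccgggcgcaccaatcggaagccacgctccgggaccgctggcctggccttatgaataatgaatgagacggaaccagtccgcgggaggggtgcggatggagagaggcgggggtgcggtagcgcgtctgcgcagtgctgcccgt
Bmal1 (chr1:176766078-176766327, plus strand): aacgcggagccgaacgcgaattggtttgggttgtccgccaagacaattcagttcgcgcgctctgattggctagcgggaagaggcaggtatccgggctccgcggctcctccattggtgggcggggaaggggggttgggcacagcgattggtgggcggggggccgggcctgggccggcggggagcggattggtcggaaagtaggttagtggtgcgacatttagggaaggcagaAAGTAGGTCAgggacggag
On either strand, the E-box CACGTG was found in 6.42% of all 33469 windows of the table, the E'-box CACGTT in 4.83%, the D-box (TTATGTAA or TTACGTAA) in 1.01% and the RORE, which ends in GGTCA after an A/T-rich stretch, in 0.852%. The E-box was held by 3 of the 9 listed genes with a window (Nr1d1, Tef and Bhlhe40), the E'-box by 2 (Per2 and Nr1d1) and the D-box by 1 (Per2), at 192 bases before the start. The RORE of Bmal1 lies 19 bases before its start, and none of the 9 genes held one or the cAMP response element TGACGTCA, which is in 1.83% of windows. Such a match is a description of letters in the window only.

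Some facts of the whole series bear on every value below. The detection p on the array was under 0.05 for 48.2% to 52.9% of probes. The median signal ran over 36.4 to 50.6 in cortex arrays and 49.3 to 75 in medulla arrays. Deposited signals are thus brighter in medulla before normalization. Brightness also differed by diet: cortex medians were 36.4 to 39.9 in control and HLP arrays and 43.5 to 50.6 in the apocynin-treated arrays. Medulla medians were 55.1 to 61.1 in control, 49.3 to 53.5 in HLP, 60.8 to 75 in apocynin and 55.6 to 67.4 in HLP+Apocynin arrays. Ranges in deposited signal units below are not corrected for this. Precision is limited by the number of arrays. The arrays are named in the deposited signal table and again in the deposited log2 table, and 40 of 48 arrays carry another sample's name there, 24 of them another group's; the names of the signal table are used here, and a rat's cortex and medulla arrays stay together under both. The HLP+Apocynin and apocynin arrays are named as 1 block of columns under both tables, and control and HLP as another, so an effect of apocynin and an effect of the block cannot be told apart. Summed distal convoluted tubule markers, which separate cortex from medulla, lay nearer the other tissue in 5 arrays (control cortex 4, control medulla 1 and 4, apocynin medulla 4 and HLP+Apocynin medulla 5), and rat 3 of HLP+Apocynin had the highest summed macrophage markers (3486 in cortex and 4765 in medulla, against control medians of 919 and 836). Values without some or all of these arrays are given for Nr1d1 in medulla, Noct, Csnk1d and the agreement between tissues of the listed genes. Most other results below are given only with all arrays.

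Per1, a repressor of the loop that also answers to glucocorticoids within hours, was the listed gene that varied most between rats in cortex, 5.3-fold between the lowest and the highest of 24 arrays in deposited signal units (background-bearing fluorescence, not comparable between genes). In cortex its lowest, median and highest signals were 421, 530 and 1307 in HLP+Apocynin rats, 417, 588 and 895 in HLP rats, 313, 777 and 1141 in apocynin rats, and 246, 386 and 652 in control rats. The groups overlapped, and the control rats reached furthest down. In medulla, the ranges were 438 to 731 in HLP+Apocynin rats, 485 to 989 in HLP rats, 424 to 872 in apocynin rats and 391 to 1065 in control rats. After background correction and quantile normalization, the cortex mean was 9.31 ± 0.60 on the log2 scale in HLP+Apocynin rats, 9.42 ± 0.33 in HLP rats, 9.31 ± 0.83 in apocynin rats and 8.67 ± 0.65 in control rats (SD, n = 6 each). The difference from control was 0.75 in HLP rats (SE 0.34, adjusted p = 0.197, limma), 0.63 in apocynin rats (adjusted p = 0.213) and 0.64 in HLP+Apocynin rats (adjusted p = 0.205), and none passed the test. With arrays named as in the log2 table, the difference of HLP rats from control rats was 0.21. With only the arrays that both tables put in 1 group, 3 per group, Per1 in apocynin cortex was called, at 1.38 above control cortex (adjusted p = 0.0419). That was the only call among 39 other settings, in which the difference ran from 0.36 to 1.38.

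**Figure D1:**
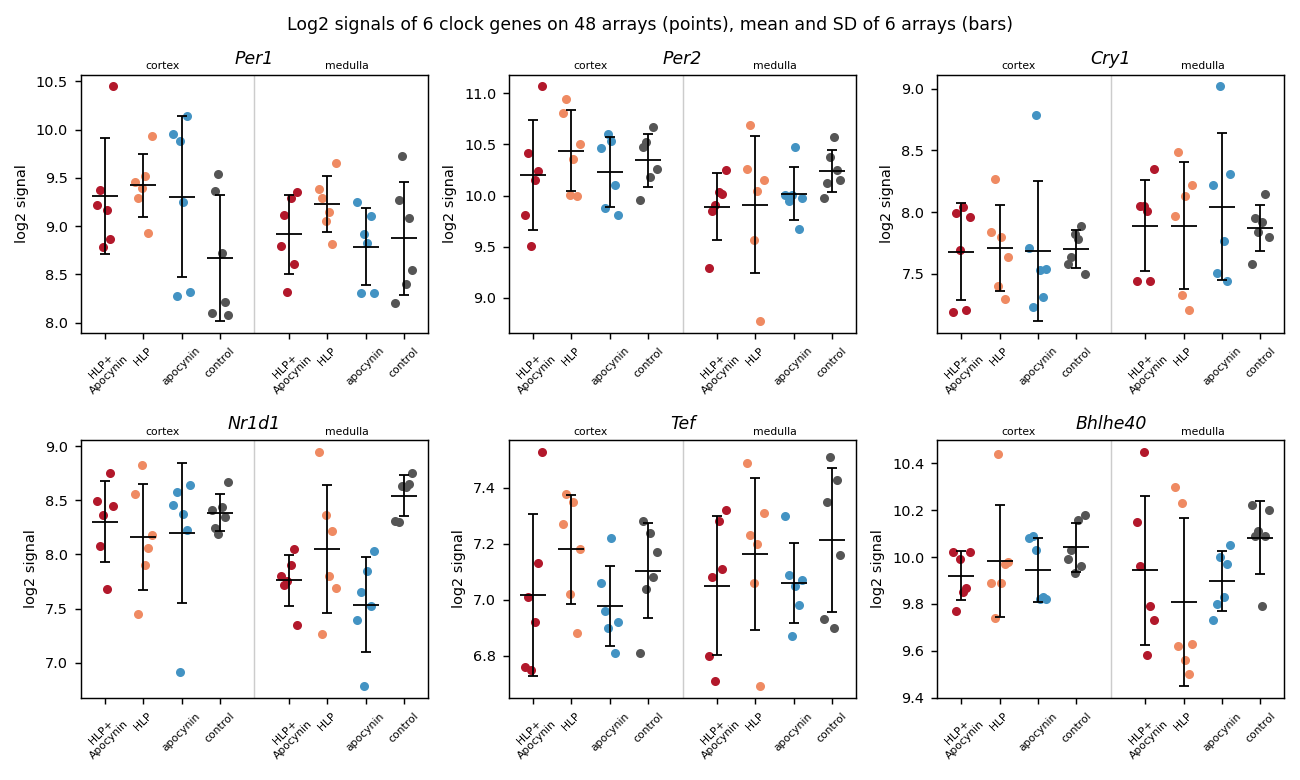
Log2 signals of Per1, Per2, Cry1, Nr1d1, Tef and Bhlhe40 by diet group and tissue. Each point is an array, and bars are the mean and SD of 6 arrays. In medulla, all control arrays of Nr1d1 lie above all apocynin and HLP+Apocynin arrays, and the other panels overlap.

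Per2 and Cry1 are the other repressors with strong signal. Per2 in cortex ran from 648 to 1967 (median 1011) in HLP+Apocynin rats, from 840 to 1666 (median 1214) in HLP rats, from 797 to 1643 (median 1211) in apocynin rats and from 994 to 1617 (median 1189) in control rats. In medulla it lay between 916 and 1264 in HLP+Apocynin rats, between 472 and 2002 in HLP rats, between 1023 and 2007 in apocynin rats and between 1204 and 1815 in control rats. The HLP rats thus spanned the widest range in medulla, on both sides of the control rats. Cry1 in medulla had lowest, median and highest signals of 207, 360 and 435 in HLP+Apocynin rats, 169, 339 and 486 in HLP rats, 247, 387 and 775 in apocynin rats, and 259, 340 and 402 in control rats. In cortex its range was 142 to 281 in HLP+Apocynin rats, 145 to 297 in HLP rats, 166 to 539 in apocynin rats and 166 to 265 in control rats. The medians of Cry1 lay close together in each tissue, and its log2 differences from control ran from -0.02 to 0.01 in cortex and from 0.02 to 0.17 in medulla, none past the test. Per2 differed from control by -0.15 to 0.09 in cortex and by -0.35 to -0.22 in medulla, also without a call.

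Under the signal table's names the control group had the lowest SD of the 4 groups for Per2, Nr1d1 and Cry1 in both tissues. For Cry1 the SDs in cortex were 0.39, 0.35 and 0.57 in HLP+Apocynin, HLP and apocynin rats and 0.15 in control rats; in medulla they were 0.37, 0.51 and 0.60, against 0.19 in control rats. In all, 3 of 9 tested listed genes in cortex and 4 of 8 in medulla had their lowest SD in control, where 26.8% and 21.6% of all probes did. With the log2 table's names the counts were 2 of 9 and 0 of 8, so this pattern rests on which table names the arrays.

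Nr1d1, which encodes REV-ERB alpha, was the listed gene whose groups separated. In medulla its lowest, median and highest signals were 202, 319 and 368 in HLP+Apocynin rats, 203, 323 and 535 in HLP rats, 139, 319 and 372 in apocynin rats, and 421, 535 and 581 in control rats. Every control array was above every array of both apocynin-treated groups, and the HLP rats spanned both levels. The log2 means were 7.76 ± 0.24 in HLP+Apocynin rats, 8.05 ± 0.59 in HLP rats, 7.54 ± 0.43 in apocynin rats and 8.55 ± 0.19 in control rats (SD, n = 6 each). Nr1d1 fell in medulla by 1.01 on the log2 scale in apocynin rats relative to control rats (SE 0.22, adjusted p = 0.00846) and by 0.78 in HLP+Apocynin rats relative to control rats (SE 0.22, adjusted p = 0.0327). The HLP rats differed from control by -0.50 (SE 0.22, adjusted p = 0.696). Of the 8 listed genes tested in medulla, Nr1d1 alone passed the test against control with apocynin and with HLP+Apocynin, where 7.14% and 7.38% of all probes did. No probe passed with HLP (0.0% of 11972; 794 had an unadjusted p under 0.05). Groups did not overlap for 1 listed gene in each of these apocynin comparisons, against 4.0% and 3.17% of all probes. Both comparisons share the control arrays. Since whole tissue was measured, fewer cells that express a gene and less of its RNA per cell cannot be told apart. The hour at which the kidneys of each group were taken is not known either, and its part in these differences was not tested.

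The fall of Nr1d1 in apocynin medulla passed the test under each of 39 other settings, between -1.30 and -0.86, including the 3 arrays per group that both tables put in that group (-1.30, adjusted p = 0.0331). That in HLP+Apocynin medulla passed in 28 of 40. It missed the threshold with the authors' log2 values (-0.71, adjusted p = 0.0737), without background correction (-0.71, adjusted p = 0.0654) and without rat 3 of HLP+Apocynin (-0.78, adjusted p = 0.0532). Segment markers moved with these groups: the median summed collecting duct signal in medulla was 2670 in HLP+Apocynin rats, 4087 in HLP rats, 3499 in apocynin rats and 5310 in control rats, and that of the distal convoluted tubule was 1849, 2232 and 2011, against 688 in control rats. With the difference of proximal tubule and collecting duct markers as a covariate, Nr1d1 differed from control by -0.99 in apocynin rats (adjusted p = 0.00784) and by -0.76 in HLP+Apocynin rats (adjusted p = 0.0269). That covariate does not hold markers of other cell types. Summed smooth muscle and fibroblast markers in medulla ran from 698 to 5597 (median 1115) in HLP+Apocynin rats, above all control rats at 440 to 661 (median 472), with medians of 557 in HLP rats and 686 in apocynin rats; 3 of the 4 genes of that list had an annotated probe. The median summed macrophage signal was 1174 in HLP+Apocynin rats, 828 in HLP rats and 917 in apocynin rats, against 836 in control rats. The part of these cells in the Nr1d1 result was not tested. Without the 5 arrays near the other tissue the differences were -1.11 (adjusted p = 0.0146) and -0.88 (adjusted p = 0.0408).

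In cortex, Nr1d1 had lowest, median and highest signals of 216, 339 and 397 in HLP+Apocynin rats, 171, 280 and 407 in HLP rats, 133, 368 and 410 in apocynin rats, and 281, 351 and 383 in control rats. These groups overlapped throughout. The log2 difference from control was -0.08 in HLP+Apocynin rats (adjusted p = 0.857), -0.22 in HLP rats (adjusted p = 0.647) and -0.19 in apocynin rats (adjusted p = 0.666). Tested as a difference between tissues, the apocynin effect on Nr1d1 was 0.82 higher in cortex than in medulla (SE 0.29, adjusted p = 0.0407), and the HLP+Apocynin effect was 0.70 higher (SE 0.29, adjusted p = 0.111). Of 9 listed genes tested in this way, 2 passed for apocynin (Nr1d1 and Per3), where 21.1% of all probes did, and none for HLP+Apocynin, where 13.7% did. The difference between tissues was called for none of 9 in HLP+Apocynin rats against HLP rats (9.04% of all probes) or against apocynin rats (0.0159%). The call for Nr1d1 held in 1 of 7 other settings, with adjusted p between 0.0312 and 0.0884. That of Per3, -0.034 (adjusted p = 0.0339), concerns a probe detected in 14 cortex arrays and 5 medulla arrays.

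Tef, a PAR bZIP activator of detoxification and transport genes, ran over 83.4 to 207 in cortex and 81.6 to 274 in medulla across all rats, and its differences from control lay between -0.13 and 0.07 in cortex and between -0.16 and -0.05 in medulla. Bhlhe40, a repressor that competes for E-boxes, ran over 730 to 1153 in cortex and 744 to 1712 in medulla, with differences from control between -0.12 and -0.06 in cortex and between -0.28 and -0.14 in medulla. Neither passed the test in any comparison with control. Dbp, the PAR bZIP factor with the strongest rhythm in many tissues, was detected on all arrays but was dim, at 52.8 to 93.6 in cortex and 55 to 116 in medulla. Near background the correction presses log2 differences together, so those of Dbp, Per3 and Clock are understated. Dbp differed from control by at most 0.04 in either direction in each tissue. Per3, a period gene whose loss leaves the loop running in mice, ran over 34.4 to 49.5 in cortex and 42.3 to 68.9 in medulla, near background, and was not tested in medulla.

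Clock, which encodes the partner of BMAL1, was detected on 10 of 24 cortex arrays and 17 of 24 medulla arrays. In cortex its signals were 41 to 45.4 in HLP+Apocynin rats, 33 to 37.8 in HLP rats, 43 to 52.6 in apocynin rats and 32.2 to 37.9 in control rats. In these deposited signals the apocynin arrays lay above all control arrays, while the normalized log2 values of apocynin rats (6.50 to 6.54) and control rats (6.48 to 6.51) overlapped. Clock was higher by 0.03 in apocynin cortex than in control cortex (SE 0.01, adjusted p = 0.0168), or 0.188 without background correction (adjusted p = 0.0136), the 1 listed gene of 9 called there, where 16.8% of all probes were. It was not called when detection on 12 arrays was required, since it then left the test, nor with the log2 table's names, nor with only the arrays that both tables put in 1 group (0.023, adjusted p = 0.394). In HLP+Apocynin cortex against control none of 9 was called (16% of all probes), and in HLP cortex against control none of 9 (2.4%). Against HLP rats, HLP+Apocynin rats differed in none of 9 in cortex (18.4%) and none of 8 in medulla (8.24%). Against apocynin rats, HLP+Apocynin rats differed in none in either tissue, nor did any probe (0.0% each; 856 and 723 probes had an unadjusted p under 0.05). The effect of HLP with apocynin minus that without it was called for no probe in cortex or medulla (0.0% each; 2056 and 257 unadjusted).

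The 2 tissues of a rat tracked each other. Each array was set against the mean of its group, and the deviations in cortex and medulla were correlated over the 24 rats; p-values come from 100000 permutations of rats within groups and were adjusted over 11623 probes. Of 8 listed genes tested, 4 were called, all positive, with a median r of 0.598, where 9.72% of all probes were called and the median r was 0.179. Cry1 had r = 0.887 (rho = 0.787, permutation p = 1e-05, the smallest 100000 permutations can give, adjusted p = 0.00113), with cortex and medulla on the same side of their group means in 20 of 24 rats. Per1 had r = 0.806 (rho = 0.796, permutation adjusted p = 0.00113; same side in 18 rats). Without the 2 rats farthest from the median in cortex, r was 0.824 for Cry1 and 0.791 for Per1. Within the block of both apocynin groups it was 0.913 and 0.860, and within that of HLP and control 0.865 and 0.791. Both were called under all 10 other settings.

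Nr1d1 and Per2 were less firm. Nr1d1 had r = 0.688 (rho = 0.645, permutation adjusted p = 0.0389), which was 0.447 without the 2 farthest rats and 0.573 without rat 3 of apocynin alone (permutation adjusted p = 0.207), and it was called in 4 of 10 other settings. Rat 3 of apocynin had the lowest Nr1d1 of all rats in both tissues, at 133 in cortex and 139 in medulla, and the highest Cry1, at 539 and 775. Per2 had r = 0.615 (rho = 0.632, permutation adjusted p = 0.0313), 0.682 without the 2 farthest rats, and was called in 4 of 10 other settings. Tef had r = 0.581 (rho = 0.515, permutation adjusted p = 0.0643). Dbp, Bhlhe40 and Clock had r = 0.380, 0.260 and 0.131. Without the 4 rats with an array near the other tissue, Cry1 (0.881), Per1 (0.850) and Tef (0.665, adjusted p = 0.0467) were called, and Per2 (0.629, adjusted p = 0.0518) and Nr1d1 (0.682, adjusted p = 0.0641) were not.

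**Figure D2:**
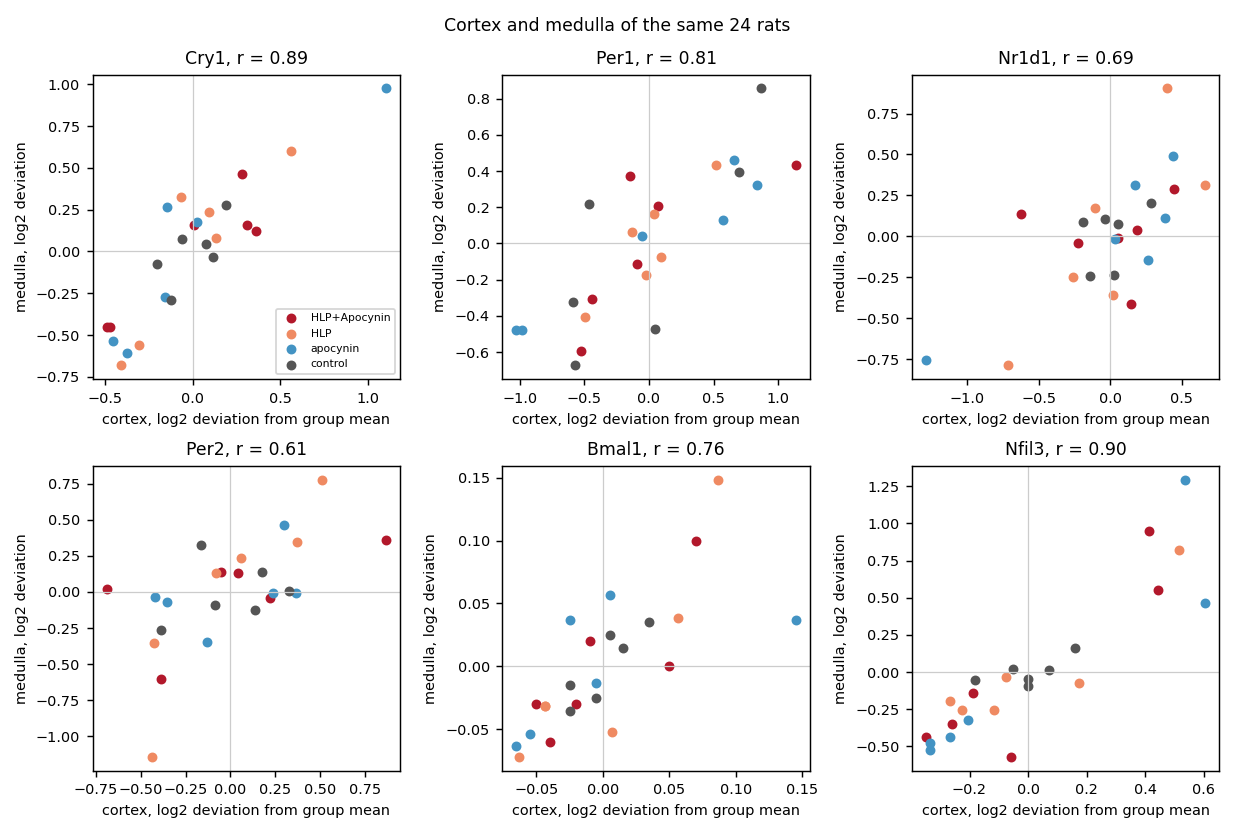
Deviation of each rat from its group mean, log2 signal in cortex (x axis) against medulla (y axis), for 6 clock genes; each point is 1 of 24 rats, coloured by diet group. The points of Cry1 (r = 0.89), Per1 (0.81) and Nfil3 (0.90) lie along a line, and rat 3 of apocynin is the far point for Cry1 and Nr1d1.

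Among 18 other genes of the clock machinery, 10 had a probe. Bmal2, Rorb and Tipin were detected on no array, and Npas2 on 12 cortex arrays and no medulla array. Of the 6 that could be tested in both tissues, 3 were called for agreement between them, where 9.72% of all probes were. Nfil3, the D-box repressor, ran from 78.9 to 255 in cortex and from 92.9 to 608 in medulla and had r = 0.896 (rho = 0.859, permutation adjusted p = 0.00844). Timeless, a replication fork factor with a debated clock role, had r = 0.781 (rho = 0.688, permutation adjusted p = 0.0252). Bmal1, the partner of CLOCK, was dim (34.9 to 76.6 in cortex, 41.7 to 94.4 in medulla) and had r = 0.756 (rho = 0.823, permutation adjusted p = 0.00389). Without the 2 farthest rats these values were 0.902, 0.622 and 0.781. Btrc, Cry2 and Csnk1d had r = 0.200, -0.115 and -0.250 and were not called.

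Between genes, the deviations are given as a description of arrays that share hybridization and depth, with 24 arrays per tissue. Nr1d1 and Cry1 ran against each other, with r = -0.80 in cortex and -0.54 in medulla, or -0.62 and -0.39 without rat 3 of apocynin. Per2 ran with Tef (0.77 in cortex, 0.56 in medulla) and with Cry1 (0.59 and 0.60). Both Per2 and Tef ran against Bmal1: Per2 had r = -0.41 in cortex and -0.82 in medulla, and Tef had -0.52 and -0.73. Tef also ran against Nfil3 (-0.64 in cortex, -0.69 in medulla), and so did Dbp (-0.42 and -0.57), while Bmal1 and Nfil3 ran together (0.65 and 0.73). Cry1 and Bmal1 had r = -0.52 in both tissues. Nr1d1 and Bmal1, a repressor and its target, had r = 0.11 in cortex and -0.09 in medulla. Nr1d1 also had r = -0.33 and -0.19 with Per2, -0.30 and -0.23 with Per1, 0.01 and 0.09 with Tef, and -0.07 and 0.20 with Dbp. Per1 ran with Per2 (0.59 and 0.29) and Tef (0.38 and 0.73). Its r was 0.04 and -0.36 with Bmal1 and 0.04 and -0.22 with Nfil3. Cry1 and Nfil3 had r = 0.05 and 0.01. For Per2 and Bmal1, r within the block of both apocynin groups was -0.20 in cortex and -0.65 in medulla, and within HLP and control -0.78 and -0.91.

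**Figure D3:**
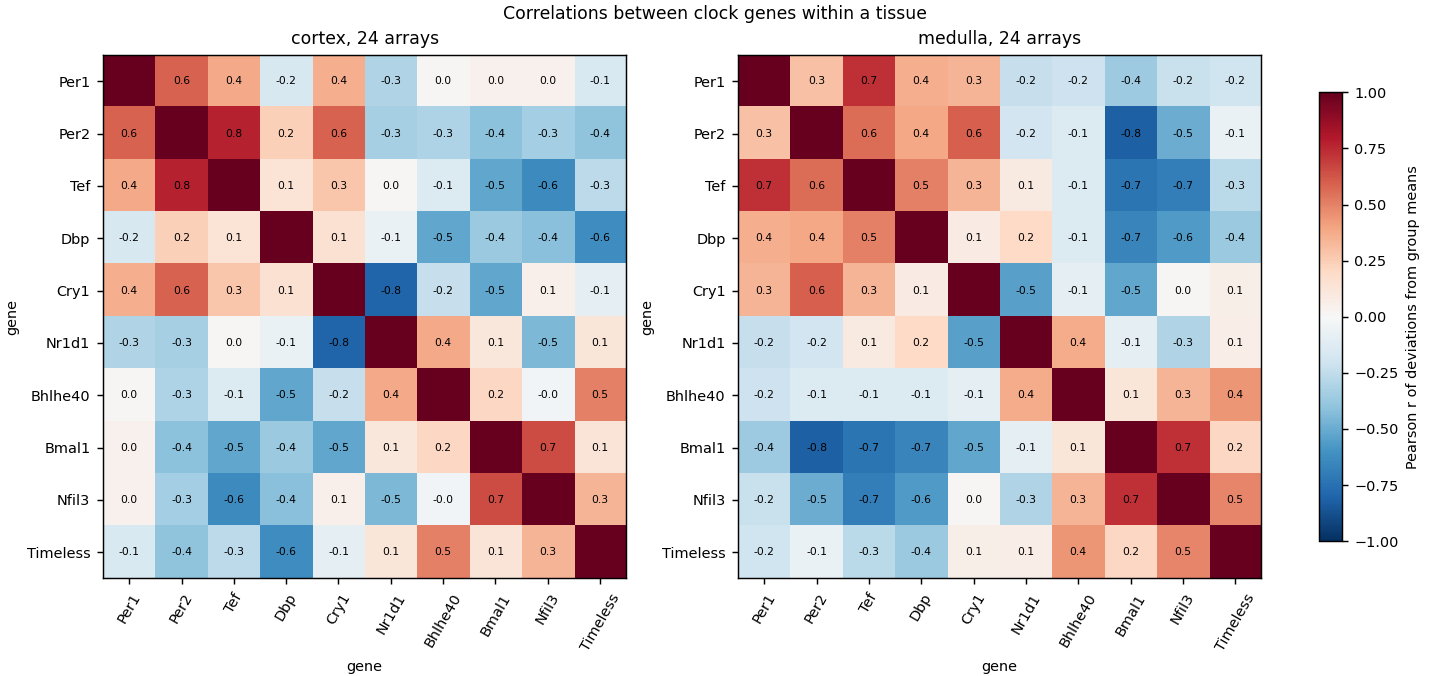
Pearson correlations of deviations from group means between 10 clock genes, in cortex (left) and medulla (right), over 24 arrays each. Per2, Tef and Cry1 are positive with each other in both tissues, and Bmal1 and Nfil3 are positive with each other (0.65 and 0.73) and negative with Tef and Dbp.

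By a rule that named the genes most like Dbp, the mean of its cortex and medulla correlations was highest among 8492 probes for Agpat1 (0.68), Mrps26 (0.66), Hecw2 (0.63), Pecr (0.63) and Wdr46 (0.62), and lowest for Pkib (-0.62), Irf2bpl (-0.62), Sparc (-0.61), Pnrc1 (-0.61) and Cpsf6 (-0.58). None is a listed clock gene, and 2 of these 10 stayed among the 10 under median scaling. Bmal1 (-0.52) was 26th from the bottom of this order and Nfil3 (-0.50) 41st, while Tef (0.32) and Per2 (0.32) were 883rd and 887th from the top.

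Along the columns of the signal table no clock gene had a slope within groups that passed the test, and no probe did in either tissue (0.0% each; 812 in cortex and 260 in medulla had an unadjusted p under 0.05). In HLP medulla, Cry1 read 306, 486, 188, 372, 169 and 408 in column order, and Per2 read 1191, 2002, 764, 1210, 472 and 1343. The columns that the log2 table names HLP are the second, the fourth and the sixth of these, each higher than its neighbours in both genes. The control medulla arrays did not alternate in this way: Cry1 read 259, 382, 343, 338, 402 and 322 there, and Per2 read 1204, 1444, 1621, 1815, 1443 and 1398. Alternation was not tested, and other genes, the cortex arrays and the apocynin-treated groups are not described in this respect. It therefore does not settle which names are right. Under the names of that table, HLP rats differed from control rats in medulla by 0.41 in Cry1 and 0.42 in Per2, with an adjusted p of 0.998 for each.

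**Figure D4:**
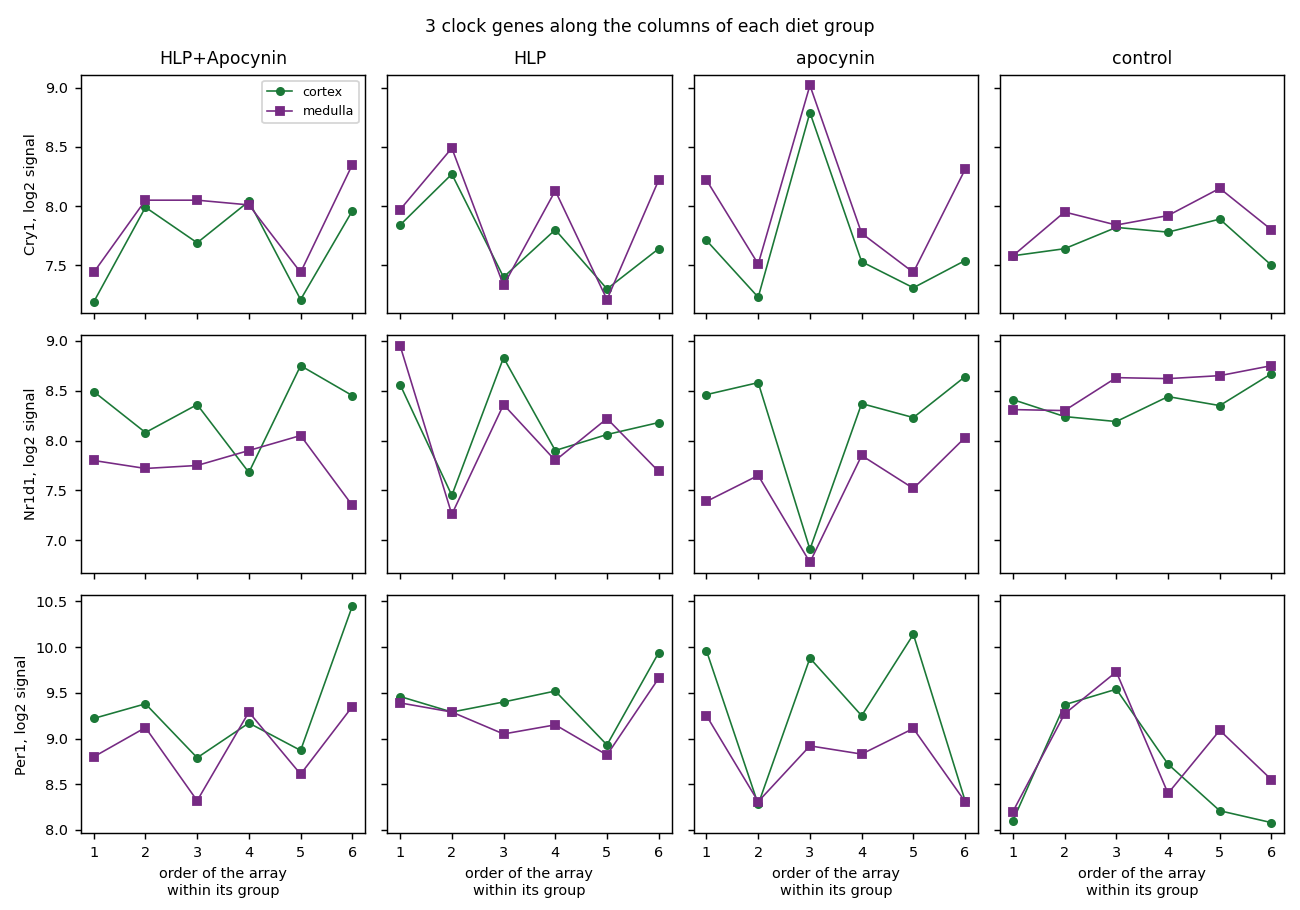
Log2 signals of Cry1, Nr1d1 and Per1 along the columns of the signal table, with the order of the 6 arrays within each diet group on the x axis, for cortex (circles) and medulla (squares) of the same rats. Cortex and medulla lie on the same side of their group means in 20 of 24 rats for Cry1, 18 for Per1 and 14 for Nr1d1, rat 3 of apocynin is the highest for Cry1 and the lowest for Nr1d1, and no slope along the columns passed the test.

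Between the tissues of the same rats, 6 of 9 listed genes were called, where 65.3% of all probes were. After quantile normalization, but not with the authors' log2 values, Per2 was higher in cortex than in medulla by 0.29 (SE 0.10, adjusted p = 0.00989; higher in 19 of 24 rats), Nr1d1 by 0.29 (SE 0.10, adjusted p = 0.0142; 16 rats) and Dbp by 0.06 (adjusted p = 6.73e-06; 21 rats), which is 0.24 without background correction. Cry1 was lower in cortex by 0.23 (cortex minus medulla -0.23, SE 0.10, adjusted p = 0.0435), with 21 of 24 rats higher in medulla. Per3 (0.02) and Clock (-0.01) were called at differences that are small on this scale. The directions rest on the scaling: the authors' log2 values place the median probe at -0.44, where Per2 is at -0.13, Nr1d1 at -0.15, Dbp at -0.23 and Cry1 at -0.65, so relative to that median Per2 is at 0.32, Nr1d1 at 0.29, Dbp at 0.21 and Cry1 at -0.21. Under median scaling the median probe is at -0.07, Nr1d1 at -0.03, Per2 at 0.00 (adjusted p = 0.97) and Cry1 at -0.52. The call for Cry1 was lost without a filter (adjusted p = 0.0722) and without rat 3 of HLP+Apocynin (adjusted p = 0.0813).

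Other genes around the clock were counted from fixed lists. Among other core clock genes, 2 of 7 were higher in HLP+Apocynin cortex than in control cortex, where 16% of all probes were called in either direction: Csnk1d, a kinase of PER proteins, by 0.34 (SE 0.10, adjusted p = 0.0197) and Timeless by 0.19 (SE 0.06, adjusted p = 0.0208). With the log2 table's names Csnk1d was at 0.24 (adjusted p = 0.235) and Timeless at 0.05 (adjusted p = 0.691), and neither was called; without the arrays near the other tissue Csnk1d was at 0.29 (adjusted p = 0.0551). In apocynin cortex none of 7 passed against control (16.8% of all probes). In medulla none of 6 passed against control with apocynin (7.14%) or with HLP+Apocynin (7.38%). Cry2 was the 1 of 7 called in the difference between tissues of the HLP+Apocynin effect, where 13.7% of all probes were. It was at 0.08 (adjusted p = 0.0186) and lay near background, with signals of 36.1 to 63.9 in cortex.

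Of 25 tested kidney clock outputs, 6 passed in apocynin cortex against control cortex, 3 in each direction, where 16.8% of all probes did, with a median log2 difference of 0.03 beside 0.00144 over all probes. Lpin1, a phosphatidate phosphatase, rose by 0.10 (adjusted p = 4.79e-05), the cold-inducible RNA-binding protein gene Rbm3 by 0.54 (adjusted p = 0.0162) and the sodium channel subunit gene Scnn1g by 0.21 (adjusted p = 0.00444). Noct, which encodes nocturnin, fell by 1.13 (adjusted p = 0.0162), the endoplasmic reticulum stress gene Herpud1 by 0.47 (adjusted p = 0.00577) and Marveld1 by 0.11 (adjusted p = 0.00062). In HLP+Apocynin cortex against control cortex 5 passed (16% of all probes), Lpin1 (0.11) and Rbm3 (0.49) higher and Noct (-1.19), Herpud1 (-0.36) and Marveld1 (-0.09) lower. In HLP cortex Noct passed (-1.18, adjusted p = 0.0485), where 2.4% of all probes did. With the log2 table's names Noct missed the threshold in all of these (-0.58 in apocynin, -0.70 in HLP+Apocynin and -0.15 in HLP cortex), while Lpin1 stayed called in both apocynin-treated groups. Rbm3, Scnn1g, Herpud1 and Marveld1, and Dusp1 below, are given here only with the signal table's names.

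Noct is a medullary gene on these arrays. Its log2 values in cortex were 6.83 to 7.02 in HLP+Apocynin rats, 6.82 to 7.01 in HLP rats, 6.81 to 7.37 in apocynin rats and 6.92 to 9.93 in control rats, and in control rat 4 the cortex array read 9.93 and the medulla array 6.94. That rat's arrays are among those with distal tubule markers near the other tissue. With all arrays, the medulla differences of -1.03 in apocynin rats (adjusted p = 0.197) and -1.03 in HLP+Apocynin rats (adjusted p = 0.174) did not pass. Without the 5 arrays, Noct in cortex was at -0.76 in apocynin rats (adjusted p = 0.024), -0.83 in HLP+Apocynin rats (adjusted p = 0.0162) and -0.82 in HLP rats (adjusted p = 0.075), and in medulla at -1.32 in apocynin rats (adjusted p = 0.0111) and -1.43 in HLP+Apocynin rats (adjusted p = 0.00663). Of the control cortex arrays kept, those of rats 1, 3 and 5 read 8.33, 8.78 and 7.69. Those of rats 2 and 6 read 6.92 and 6.93, within the range of the treated rats. The cortex differences that remain thus rest on control rats 1, 3 and 5.

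Among glucocorticoid targets, a list that also holds Per1, 8 of 15 tested were called for agreement between cortex and medulla of a rat, with a median r of 0.699, where 9.72% of all probes were called. Tsc22d3 had r = 0.822, Fkbp5 0.810, Pik3ip1 0.837, Lcn2 0.809, Sgk1 0.792, Ddit4 0.699 and Nfkbia 0.615. With Spearman's rho, Tsc22d3, Fkbp5, Pik3ip1 and Ddit4 stayed called. Sgk1 (rho = 0.653, permutation adjusted p = 0.0606), Nfkbia (0.583, adjusted p = 0.0613) and Lcn2 (0.535, adjusted p = 0.154) did not. The r of Lcn2 was 0.507 without the 2 farthest rats, 0.885 within both apocynin groups and 0.0386 within HLP and control. Of 25 kidney clock outputs 5 were called (median r 0.301), beside the same 9.72%: Wee1 (0.839), Usp2 (0.750) and Herpud1 (0.581), with Tsc22d3 and Sgk1, which stand on both lists. With rho Wee1 and Usp2 stayed called, and Herpud1 did not (rho = 0.541, permutation adjusted p = 0.115). Per1 ran with Tsc22d3 (r = 0.64 in cortex, 0.52 in medulla), Ddit4 (0.51 and 0.52) and Nfkbia (0.48 and 0.64), and was positive in both tissues with 8 of 14 targets. It was negative in both tissues with Fkbp5 (-0.05 and -0.22), and had r = 0.02 in cortex and -0.65 in medulla with Mt1. Cry1 was positive in both tissues with 10 of the 14, Tsc22d3 among them (0.63 and 0.50), and Per3 with 8. Against control, 1 target of 16 passed in apocynin cortex (Dusp1, -0.60, adjusted p = 0.0453; 16.8% of all probes), none in HLP+Apocynin or HLP cortex, none in apocynin or HLP medulla, and 1 of 15 in HLP+Apocynin medulla (7.38% of all probes). That was Sgk1, the kinase that raises sodium channel activity, with log2 values of 11.87 to 12.68 in HLP+Apocynin rats and 11.18 to 11.78 in control rats. These ranges did not overlap, and the difference was 0.86 (SE 0.22, adjusted p = 0.0184), but it was 0.23 (adjusted p = 0.591) with the log2 table's names.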

How the data were processed

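RNA of renal cortex and medulla (Trizol, column clean-up with DNase) was labelled as biotinylated cRNA and hybridized once per sample to Illumina RatRef-12 arrays. The authors exported non-normalized probe signals as intensity values, with a detection p-value per probe, and deposited a second table of log2 values; per the methods, signals were taken to log2 and normalized across the study's arrays, by a method they do not name, so the centring of that table stays unknown, and its columns were matched to arrays by correlation (the highest r with any other column was 0.997). Fold changes of the study were not used. Signals were corrected with nec (offset 16, from the detection p-values) and quantile normalized over 48 arrays (limma 3.58.1, R 4.3.3). Probes with a detection p under 0.05 in at least 6 of the 24 arrays of a tissue were tested with lmFit and eBayes over the 4 diet groups, with Benjamini-Hochberg adjustment over all tested probes and a threshold of 0.05, which is meant by called, passed and adjusted p. Comparisons between tissues used the rat as a block (duplicateCorrelation, 0.17). Gene symbols were those of the platform annotation (13650 probes with 1 symbol). Slopes were fitted on column order within groups. Agreement used Pearson's r with two-sided permutation tests (Python 3.11.15). The titles number the arrays of a group and name no rat, and the methods describe cortex and medulla RNA from each rat. The 6 arrays of a group were therefore taken as separate rats, and p-values measure the spread between them. Scripts were tested on simulated data.

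The listed genes, gene lists and tests were chosen with earlier results of these data known. Named genes were each listed gene, each other core clock gene with a probe, members of the other lists called where clock calls are described, and the 5 genes most and least like Dbp. Replicate numbers did not pair most diet groups (30 of 72 same-number pairs had r over 0.1). They did for apocynin and control in medulla, where all 6 pairs had r of 0.12 to 0.85 in these data. The replicate block left Nr1d1 called there. For most rats the numbers also paired tissues: 19 of 24 cortex arrays matched best the medulla array of their number. Over the 24 same-number pairs of tissues, r ran from -0.79 to 0.80 and was over 0.1 in 20. Alternatives were median scaling, no background correction, other filters, normalization within tissue, 36 arrays without the apocynin group, the authors' log2 values, the names of the log2 table, only arrays that both tables put in 1 group, the replicate block, the methods' t-test, Spearman's rho and leaving out each array; after seeing the data, leaving out doubted arrays or rats, a marker covariate, and the log2 names with the authors' values were added.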

Additional observations from a re-analysis of the deposited data

Results flagged for a closer look

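In 72 groups of 6 arrays (9 listed genes), 5 had an array far from the others, a gap over 0.625 of the group's range, and chance gives about 1 group in 20. Per1 stood at 10.45 in rat 6 of HLP+Apocynin cortex (next value 9.38). Nr1d1 stood at 6.91 (next 8.23) and Cry1 at 8.79 (next 7.71) in cortex of rat 3 of apocynin, the same animal. Bhlhe40 stood at 10.44 in rat 3 of HLP cortex (next 9.98) and at 9.79 in rat 4 of control medulla (next 10.09), an array with distal tubule markers near the other tissue.

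The effect of apocynin against control differed between cortex and medulla for Nr1d1 by 0.82 (adjusted p = 0.0407, limma) and for Per3 by -0.034 (adjusted p = 0.0338). These are 2 of 9 listed genes, beside 21.1% of all probes. The call held in 1 of 7 other settings for Nr1d1 and in 4 of 7 for Per3. Per3 was detected on 5 of 24 medulla arrays, and was at -0.013 with the log2 table's names.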

How the results depend on the processing

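Of 541 counts of called clock genes under other settings, 514 stayed within 1.5 times the main count. In 17 of 22 comparisons the count stayed within that margin in all settings run. Most of the 22 comparisons had a main count of 0, and a count that stayed at 0 was taken as within the margin. In some of them no probe at all passed. These shares therefore say little about how firm the calls are. Single calls could still change within the margin, as for Cry1 and Per2 in cortex against medulla. In apocynin cortex against control the count of 1 (Clock) became 0 when detection on 12 of 24 arrays was required, under the log2 table's names with either set of values, with only the 12 arrays compared and with the methods' t-test. With only arrays that both tables put in 1 group it stayed 1 for another gene: Clock missed (0.023, adjusted p = 0.394) and Per1 passed (1.38, adjusted p = 0.0419). In HLP+Apocynin medulla against control the count of 1 (Nr1d1) became 0 without background correction, with the authors' log2 values under either naming, with only arrays that both tables put in 1 group and without rat 3 of HLP+Apocynin; leaving out 1 array at a time gave 0 to 1, and 0 for each of control arrays 3, 5 and 6 and HLP+Apocynin arrays 1, 2, 3 and 6 (Nr1d1 -0.84 to -0.70, adjusted p up to 0.0686). In the apocynin effect, cortex minus medulla, the count of 2 became 0 with median scaling and with the log2 table's names, and 1 without background correction, without a filter, without the 5 doubted arrays and without rat 3 of HLP+Apocynin. That of HLP+Apocynin went to 1 with median scaling (main 0). The agreement count of 4 became 2 with Spearman's rho, median scaling and no filter.

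Signs turned in cortex against medulla for Per2 (-0.13), Per3 (-0.392), Dbp (-0.229) and Nr1d1 (-0.15) with the authors' log2 values and for Nr1d1 with median scaling (-0.03). Nr1d1 in cortex against control also turned without apocynin array 3 (0.07) and without HLP+Apocynin array 4 (0.041); left-out arrays gave -0.28 to 0.07 and -0.173 to 0.041. The replicate block changed no call: in medulla Nr1d1 had an adjusted p of 0.015 with apocynin and 0.0445 with HLP+Apocynin. The cause of these changes was not tested. Per3, Clock, Dbp, Bmal1 and Cry2 lie near background, which limits what their differences can show.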
